A study of Gnathonemus petersii with 18 samples.

Results

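The axonal intermediate filament genes prph, nefl and nefh were followed in RNA-seq libraries of Gnathonemus petersii, the elephantnose fish, which generates weak electric fields and senses its surroundings with a chin appendage supplied by the trigeminal nerve. They are the 3 genes that carry these symbols among the 28031 genes of the deposited table, and each was read as a raw count and as TPM (a level corrected for gene length and library total) in all 18 libraries. The groups were the trigeminal ganglion, the spinal cord and the cerebellum, with 6 libraries each; the labels state that the tissues came from 6 fish and name no genotype, treatment, age or sex. The cerebellum group carries that name in its tissue label, while its sample titles and column headers read Brain. Each library is bulk RNA of a whole tissue, in which fewer cells of a type and less RNA per cell cannot be told apart.

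Intermediate filaments give axons mechanical strength and, in large axons, set the calibre and with it the conduction speed. In mammals, NEFL (neurofilament light chain) forms the core on which neurofilaments assemble, NEFH (neurofilament heavy chain) adds a long, heavily phosphorylated tail that spaces neighbouring filaments, and PRPH (peripherin) joins them mainly in neurons whose axons leave the brain and spinal cord, such as sensory ganglion cells and motor neurons. Trigeminal ganglion cells send long axons to the skin of the head, the spinal cord holds motor neurons and long tracts, and most neurons of the cerebellum are granule cells with thin axons.

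Total counts were 10413024 to 14183733 per library in the ganglion, 10346375 to 13379441 in the spinal cord and 10953416 to 17587837 in the cerebellum. The tissue labels were set against marker genes, with levels in TMM-scaled CPM (counts relative to library total, not corrected for gene length). The sensory neuron factor isl1 lay at 186.0 to 336.9 CPM in the ganglion, at 2.16 to 8.84 CPM in the spinal cord and at 0 in the cerebellum. The acetylcholine transporter gene slc18a3, a motor neuron marker, lay at 0 to 0.470 CPM in the ganglion, at 145.8 to 367.7 CPM in the spinal cord and at 0 to 0.861 CPM in the cerebellum. Summed granule cell markers (12 of 13 listed genes matched) lay at 163.4 to 341.1 CPM in the ganglion, at 442.5 to 541.0 CPM in the spinal cord and at 7725 to 12651 CPM in the cerebellum. Some libraries stood apart. Ganglion replicates 2 and 5 had TMM factors of 0.814 and 0.611, against 0.974 to 1.12 in the other libraries, which raises their CPM relative to their TPM. The skeletal muscle actin acta1 reached 3252 CPM in ganglion replicate 1 and 1295, 1119 and 1172 CPM in spinal cord replicates 1, 3 and 5, and was at most 295.0 CPM elsewhere. The fold changes of the 3 genes are given below with and without these libraries.

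Peripherin separated the tissues most widely. It lay at 246.6 CPM in the lowest ganglion library, with a median of 389.3 and a highest value of 852.6 CPM. Spinal cord libraries lay between 29.6 and 41.9 CPM with a median of 30.7 CPM. The cerebellum held 11 prph counts over all 6 libraries, 3, 0, 0, 2, 3 and 3 in replicates 1 to 6, where a count of 0 allows up to 0.258 CPM in replicate 2 and 0.199 CPM in replicate 3. Every ganglion library was above every spinal cord library, and every spinal cord library was above every cerebellum library. By TPM rank among all genes, prph held places 306 to 680 in the ganglion, 3281 to 4698 in the spinal cord and 20865 to 22994 in the cerebellum.

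Ganglion replicates 5 and 2 were the highest for prph, at 852.6 and 734.5 CPM, while the other ganglion libraries lay at 246.6 to 408.7 CPM. In TPM, prph averaged 362 ± 100 in the ganglion, 35.2 ± 6.10 in the spinal cord and 0.147 ± 0.125 in the cerebellum (SD, n = 6 each). Summed Schwann cell markers (7 of 13 listed genes matched) were also highest in ganglion replicates 5 and 2, at 22547 and 9394 CPM, against 5095 to 8798 CPM in the other ganglion libraries. The low TMM factors of replicates 5 and 2 raise both sets of CPM. In TPM, prph was still highest there, at 440.4 and 504.7, against 217.8 to 353.5 in the other ganglion libraries. The marker sums were not taken in TPM. The sum of replicate 2 was close to the highest of the other libraries, 8798 CPM, whose TMM factor was 1.01 (replicate 6). Its place in the order is therefore given for CPM only and is not read as a match with prph. The part of Schwann cells in the prph levels was not tested.

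Neurofilament light chain was high in the ganglion and the spinal cord and low in the cerebellum. The nefl level was 161.7 CPM in the lowest ganglion library, with a median of 261.9 and a highest value of 489.8 CPM. In the spinal cord the lowest, median and highest values were 109.7, 263.2 and 441.9 CPM. In the cerebellum they were 1.38, 3.24 and 7.26 CPM. The ganglion and spinal cord ranges overlapped over most of their width, and both lay above all cerebellum libraries.

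Among the 3 genes nefl varied most from library to library within the spinal cord, by 4.03-fold between its lowest and highest library. Its SD of log2 CPM there was 0.81, larger than that of 92.8% of genes over 1 CPM, where the median gene had 0.29. In the cerebellum its SD was 0.83, larger than that of 95.8% of genes over 1 CPM, against 0.27 for the median gene. In the ganglion its SD was 0.63, larger than that of 60.7% of genes, against 0.53 for the median gene. The cerebellum values rest on 22 to 138 nefl counts per library.

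Neurofilament heavy chain was the most abundant of the 3 genes in every tissue and the least variable in the ganglion. The nefh level ran from 1769.6 CPM in the lowest ganglion library over a median of 2488 to a highest value of 3533 CPM. Spinal cord libraries had a lowest, median and highest value of 613.1, 1019 and 1166 CPM. In the cerebellum they were 95.8, 129.7 and 162.8 CPM. No 2 tissues overlapped, and even the cerebellum, the lowest, had 1358 to 3096 counts per library. By TPM rank nefh held places 93 to 176 in the ganglion, 154 to 355 in the spinal cord and 1795 to 2900 in the cerebellum.

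**Figure D1:**
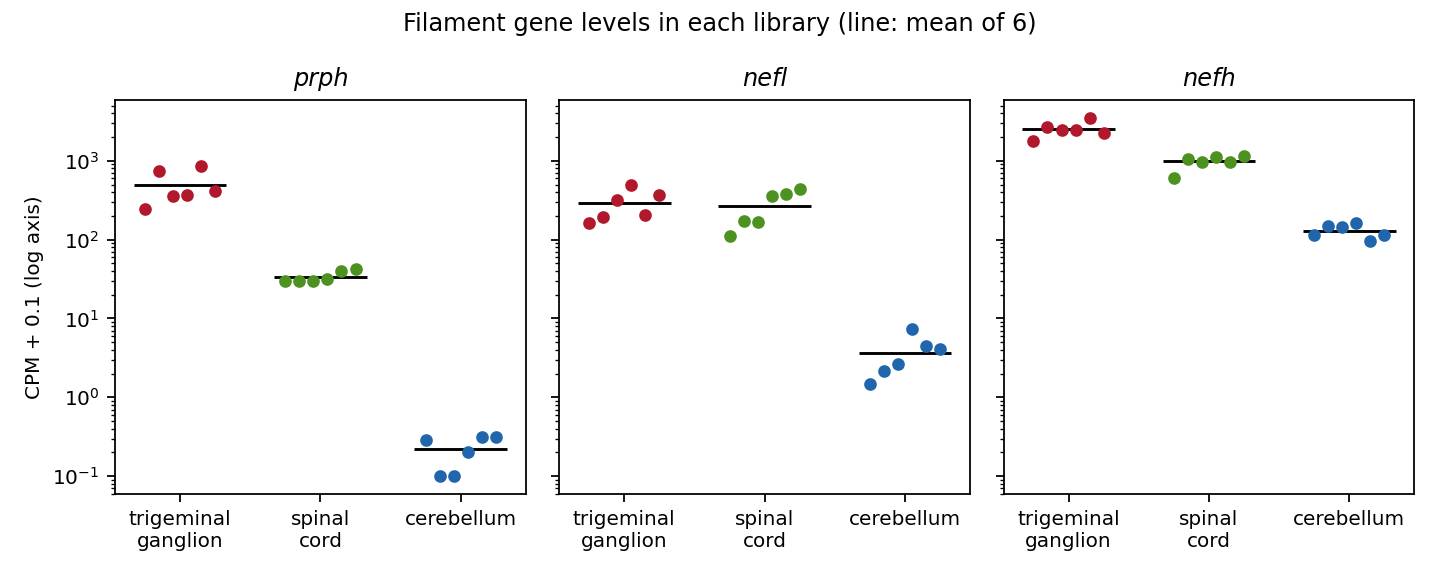
Level of prph, nefl and nefh in each library, as TMM-scaled CPM plus 0.1 on a log axis, with each point a library and the line the mean of 6 libraries of the ganglion, the spinal cord or the cerebellum. The prph points fall into 3 separate bands, the nefl points of the ganglion and spinal cord share a band above the cerebellum, and the nefh points form 3 bands that lie closer together.

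Against the cerebellum, all 3 genes were higher in the ganglion, where 29.6% of the 20691 genes tested were called higher. A gene was called at a Benjamini-Hochberg adjusted p under 0.05, over all genes tested, by the edgeR quasi-likelihood F-test, if its log2 fold change was also 1 or more in size; the standard error given is approximate, the fold change divided by the square root of F. The fold change of prph was 11.87 ± 0.477 on the log2 scale (edgeR adjusted p = 1.10e-13), with higher levels in 6 of 6 ganglion libraries. Because the cerebellum had so few prph counts, the summed and scaled counts give the more direct size, 3641-fold, with a 95% exact interval of 2035 to 7294 that covers counting error only. For nefl the log2 fold change was 6.32 ± 0.482 (edgeR adjusted p = 7.39e-10), a 79.7-fold higher level. For nefh it was 4.28 ± 0.207 (edgeR adjusted p = 1.10e-12), 19.5-fold. Ranked by fold change among the genes tested, prph was 21, nefl 244 and nefh 712. In all 3 genes every ganglion library lay above every cerebellum library, as in 24.1% of the genes tested.

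Between the ganglion and the spinal cord the 3 genes parted. Here 2 of the 3 genes, prph and nefh, were called higher, against 14.5% of the genes tested. The log2 fold change of prph was 3.87 ± 0.309 (edgeR adjusted p = 3.37e-09), a 14.7-fold higher level in the ganglion and rank 222 of the genes tested. That of nefh was 1.36 ± 0.184 (edgeR adjusted p = 4.33e-06), 2.57-fold and rank 2095. For both genes every ganglion library lay above every spinal cord library, as in 13.4% of the genes tested. The log2 fold change of nefl was 0.096 ± 0.377 (edgeR adjusted p = 0.851), with 3 of 6 ganglion libraries above the spinal cord mean. Its approximate 95% interval ran from -0.71 to 0.90, so a difference within those bounds is not excluded.

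The call of nefh between ganglion and spinal cord depended on the scale. With limma on log2(TPM + 1) its difference was 0.94 (limma adjusted p = 5.51e-05), just under the fold change required, and that of nefl was -0.26 (limma adjusted p = 0.595). On that scale the median of all genes tested moved to -0.37, against -0.0064 with TMM-scaled counts. Relative to those medians the nefh difference was 1.31 on the TPM scale and 1.37 with TMM-scaled counts, and the nefl difference was 0.11 and 0.10. The background shifts too: ganglion minus spinal cord gave 1201 genes called higher and 4336 lower on the TPM scale, a share of 21.7% higher, against 2990 higher and 3579 lower, a share of 45.5%, with TMM-scaled counts.

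Against the cerebellum, the spinal cord was also higher in all 3 genes, where 28.9% of the genes tested were called higher. The log2 fold change was 7.996 ± 0.442 for prph (edgeR adjusted p = 1.46e-11), and the summed and scaled counts gave 275-fold with a 95% exact interval of 154 to 552. It was 6.22 ± 0.480 for nefl (edgeR adjusted p = 1.39e-09), a 74.5-fold higher level in the spinal cord. For nefh it was 2.92 ± 0.195 (edgeR adjusted p = 1.82e-10), 7.57-fold. Every spinal cord library lay above every cerebellum library in all 3 genes, as in 27.3% of the genes tested.

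Fold changes against the cerebellum were smaller with limma on log2(TPM + 1), a scale that understates the change of low genes. In the ganglion they were 8.27 for prph, 5.36 for nefl and 3.63 for nefh, and in the spinal cord 4.97 for prph, 5.62 for nefl and 2.69 for nefh, all still called. The median of all genes moved to -0.52 for the ganglion and -0.14 for the spinal cord on this scale, against 0.072 and 0.078 with TMM-scaled counts. Relative to those medians, ganglion minus cerebellum was 8.78 for prph, 5.88 for nefl and 4.15 for nefh on the TPM scale. With TMM-scaled counts it was 11.8, 6.24 and 4.21 for the same genes. On log2(TPM + 1) 3075 genes were called higher and 7102 lower in the ganglion than in the cerebellum, a share of 30.2% higher, against 57.1% with TMM-scaled counts. For the spinal cord against the cerebellum 4014 genes were called higher and 3872 lower, against 5980 higher and 3369 lower with TMM-scaled counts. The ordering of ganglion above spinal cord above cerebellum, with a call in each comparison, held for prph and nefh and for 4.78% of the genes tested, and nefl lacked the ganglion to spinal cord step.

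The libraries that stood apart changed no call of the 3 genes. Without ganglion replicates 2 and 5, the ganglion minus spinal cord fold change was 3.36 for prph, 0.31 for nefl and 1.195 for nefh on the log2 scale. Without the 4 libraries with the most acta1, it was 3.98 for prph, -0.042 for nefl and 1.25 for nefh. Ganglion minus cerebellum was 11.36 for prph, 6.52 for nefl and 4.11 for nefh without those 2 ganglion libraries, and 12.01, 6.44 and 4.36 for the same genes without the 4 acta1 libraries. Spinal cord minus cerebellum without the 4 acta1 libraries was 8.02 for prph, 6.48 for nefl and 3.11 for nefh.

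**Figure D2:**
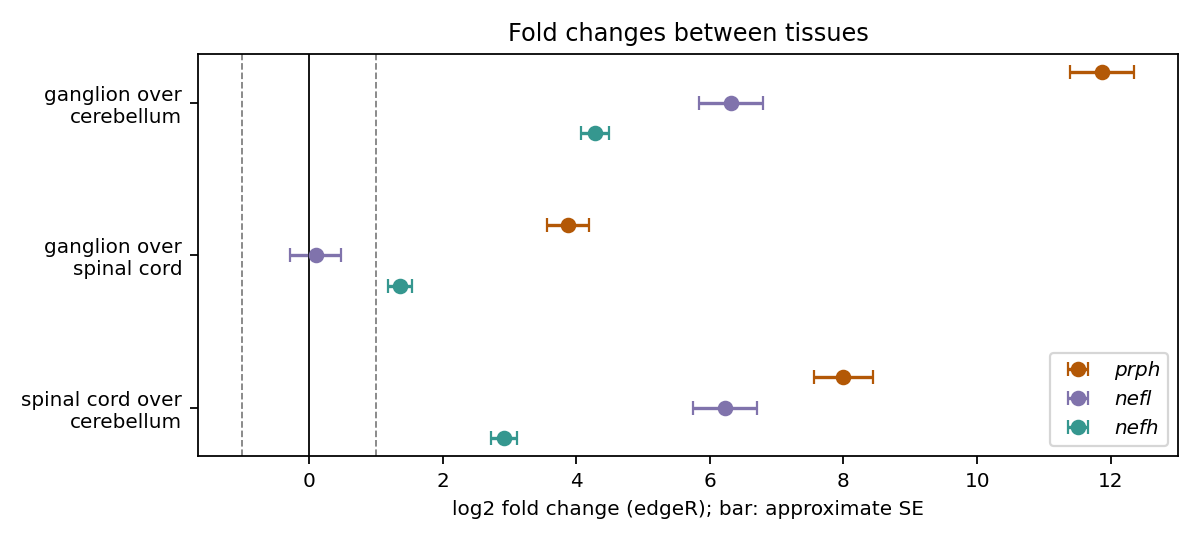
Log2 fold change from edgeR for prph, nefl and nefh in the 3 comparisons, ganglion minus cerebellum, ganglion minus spinal cord and spinal cord minus cerebellum, with bars of 1 approximate standard error and dashed lines at a log2 fold change of -1 and 1. The nefl value of 0.096 between ganglion and spinal cord lies between the dashed lines and the other 8 values lie above the upper one.

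The make-up of the summed transcripts of these 3 genes differed between the tissues. The genes nefm and ina matched no symbol. Any filament genes among the 17658 genes with a locus identifier only are also left out of these shares. Levels of different genes were set side by side in TPM only, since the annotated nefh is 1.45 times as long as nefl and 1.78 times as long as prph. Of the summed TPM of the 3 genes in the ganglion, prph made up 22.1 ± 6.01%, nefl 11.4 ± 5.03% and nefh 66.5 ± 3.67% (SD, n = 6). Ganglion replicates 2 and 5 had the largest prph shares, 30.9 and 28.4%, against 17.0 to 20.6% in the other ganglion libraries. Their nefl shares were the smallest, 6.58 and 5.52%, against 9.62 to 18.4%. In the spinal cord the shares were 4.37 ± 1.12% prph, 25.97 ± 7.75% nefl and 69.7 ± 7.41% nefh. In the cerebellum they were 0.180 ± 0.165% prph, 3.87 ± 2.07% nefl and 95.95 ± 2.15% nefh. The sum itself was 1649 ± 257 TPM in the ganglion, 843 ± 223 TPM in the spinal cord and 91.7 ± 16.1 TPM in the cerebellum.

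**Figure D3:**
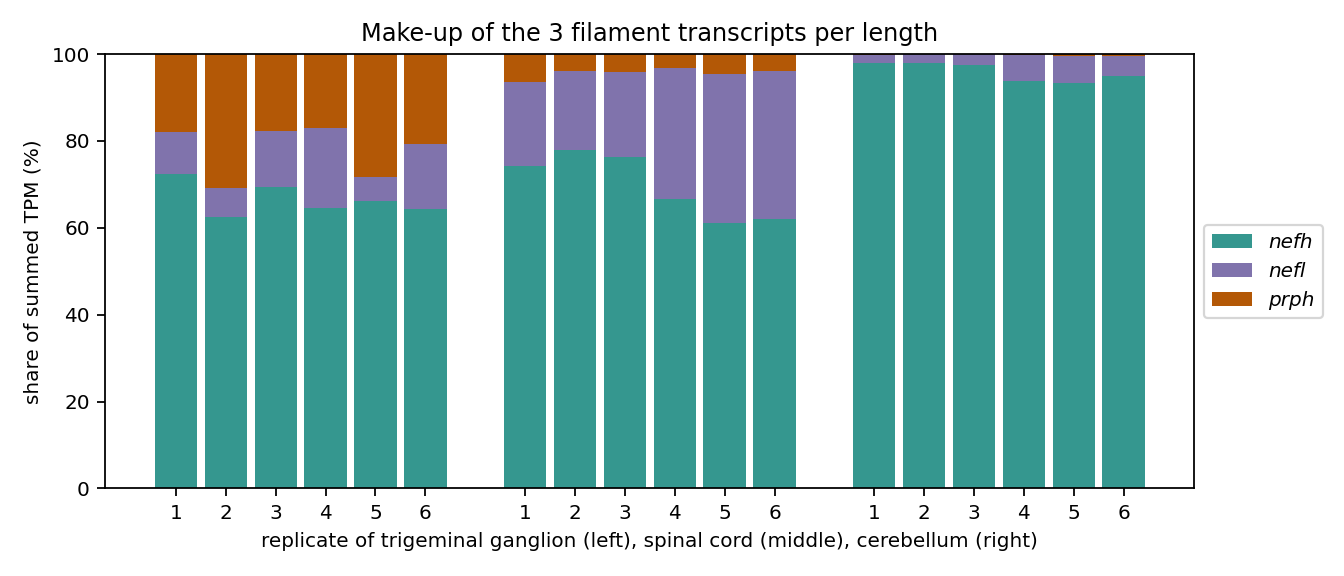
Share of prph, nefl and nefh in their summed TPM, in percent, as 1 stacked bar for each of the 6 libraries of the ganglion, the spinal cord and the cerebellum. The prph share is 17.0 to 30.9% in the ganglion and at most 6.50% in the spinal cord, and nefh takes 93.4 to 98.0% in the cerebellum.

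Within each tissue nefh was above the other genes in every library. Fold ratios in this paragraph are geometric means over the libraries of a tissue, with 0.1 added to each TPM. By that measure the TPM ratio of nefh to nefl was 6.39-fold in the ganglion, 2.77-fold in the spinal cord and 27.4-fold in the cerebellum. Its ratio to prph was 3.10-fold in ganglion libraries and 16.2-fold in spinal cord libraries. Each of these ratios lay on one side in 6 of 6 libraries, with an adjusted p of 0.0352 from an exact permutation test by sign flips (two-sided), whose smallest unadjusted p with 6 libraries is 0.0313. The mean order of prph and nefl differed between ganglion and spinal cord, though it was not settled within the ganglion. In the ganglion prph was above nefl by 2.06-fold, in 5 of 6 libraries and with a library ratio of 0.924 to 5.14, which did not pass the exact sign-flip permutation test (p = 0.0625). The ganglion ratio was 4.69 and 5.14 in replicates 2 and 5, against 0.924 to 1.87 in the other ganglion libraries. In the spinal cord nefl was above prph by 5.85-fold in 6 of 6 libraries (adjusted p = 0.0352, exact sign-flip permutation test).

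Ratios between the genes were then compared across tissues, as log2 of (TPM + 0.1), by exact two-sided permutation tests of 6 libraries against 6 with adjustment over 9 ratios. The smallest unadjusted p this design allows is 0.00217. With same-numbered libraries taken as pairs, an exact sign-flip permutation test gave an adjusted p of 0.0313 for each of the 9 ratios. The log2 ratio of prph to nefl averaged 1.04 ± 1.02 in the ganglion and -2.55 ± 0.64 in spinal cord libraries (SD, n = 6 each), a difference of 3.59 (exact permutation, adjusted p = 0.00278). No ganglion library fell within the spinal cord range. The log2 ratio of nefl to nefh averaged -2.67 ± 0.69 in the ganglion and -1.47 ± 0.59 in spinal cord libraries, a difference of -1.203 (exact permutation, adjusted p = 0.0171). Here the ranges overlapped. The lowest ganglion values were those of replicates 5 and 2, at -3.58 and -3.25, against -2.91 to -1.81 in the other ganglion libraries. Without replicate 5 alone the difference was -1.02 (exact permutation, adjusted p = 0.0346). It was not tested without both, so how far it rests on these libraries is not known. The same ratio was -4.78 ± 0.85 in the cerebellum, lower than in the ganglion by a difference of 2.10 and lower than in the spinal cord by a difference of 3.30 (exact permutation, adjusted p = 0.00278 each). The log2 ratio of prph to nefh exceeded its spinal cord value in the ganglion by 2.39 (exact permutation, adjusted p = 0.00278).

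Ratios that take in the cerebellar prph rest on 11 counts. The ratio of prph to nefl was higher in the spinal cord than in the cerebellum by 1.34 on the log2 scale (exact permutation, adjusted p = 0.02597), and with a pseudocount of 1 TPM the difference turned to -0.65 (exact permutation, adjusted p = 0.0996).

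**Figure D4:**
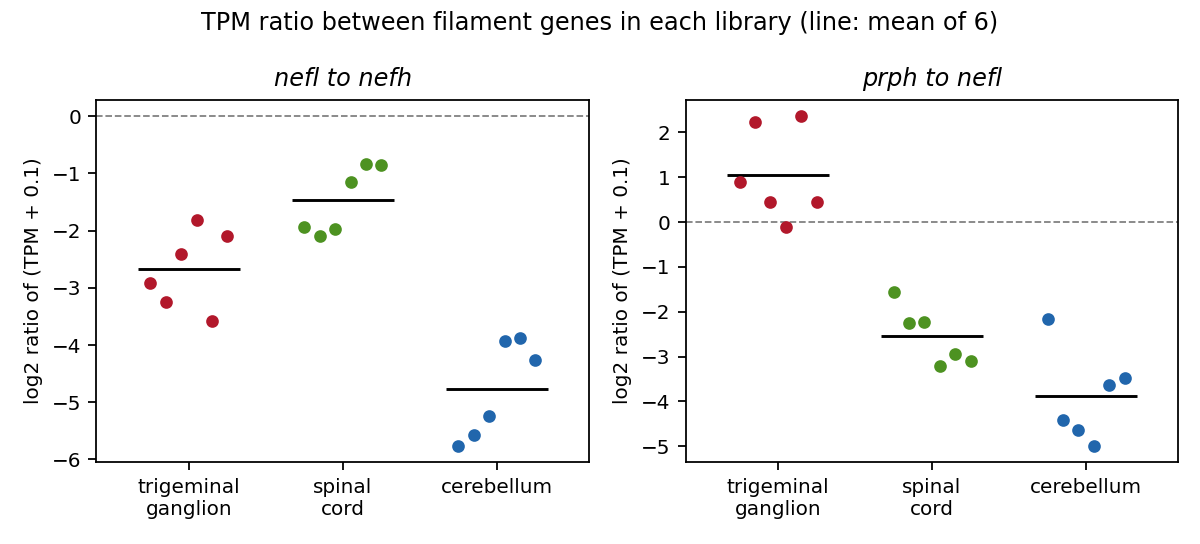
Log2 ratio of (TPM + 0.1) of nefl to nefh and of prph to nefl in each library, with the line at the mean of 6 libraries and the dashed line at equal levels. The prph to nefl points of the ganglion lie around and above the dashed line, with a mean of 1.04, and those of the spinal cord lie below it, with a mean of -2.55.

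The differences were also set against genes of neurons in general. Of 16 listed neuron markers 7 matched a symbol (elavl3, elavl4, stmn2, tubb3, rbfox3, eno2 and rtn1). Their summed level was 2044 to 3104 CPM in the ganglion, 1604 to 2466 CPM in the spinal cord and 2184 to 2925 CPM in the cerebellum, so these ranges overlapped. The markers did not move as a block: rbfox3, a nuclear splicing factor, had a log2 fold change of -4.77 in the ganglion against the cerebellum, and tubb3, a neuronal tubulin, of 3.79. With each library's mean of these 7 markers subtracted on the log2 scale, ganglion minus spinal cord was 4.11 for prph and 1.72 for nefh (exact permutation, adjusted p = 0.00244 each), and 0.51 for nefl (exact permutation, adjusted p = 0.195). Against the summed markers, in place of their mean of logs, the nefl difference turned to -0.16. Ganglion minus cerebellum was 11.42 for prph, 6.64 for nefl and 4.54 for nefh, and spinal cord minus cerebellum was 7.32, 6.13 and 2.82 for the same genes (exact permutation, adjusted p = 0.00244 each). In these comparisons the groups did not overlap except for nefl between ganglion and spinal cord. Each adjusted p of 0.00244 stands for an unadjusted p of 0.00217, the smallest that 6 libraries against 6 allow. The share of all genes without overlap was not counted on this scale. In CPM not set against markers, it was 24.1% for ganglion above cerebellum, 13.4% for ganglion above spinal cord and 27.3% for spinal cord above cerebellum.

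Markers of sensory neurons, motor neurons and Schwann cells also differed between the tissues. Summed sensory neuron markers (9 of 16 listed genes matched) lay at 959.8 to 1548 CPM in the ganglion, 195.2 to 325.3 CPM in the spinal cord and 124.9 to 150.0 CPM in the cerebellum, where isl1 and isl2 were at 0. Summed motor neuron markers (12 of 13 matched) lay at 193.8 to 346.3 CPM in the ganglion, where chat and mnx1 were at 0, at 602.3 to 1337 CPM in the spinal cord and at 95.1 to 128.4 CPM in the cerebellum. Schwann cell markers summed to 5095 to 22547 CPM in the ganglion, 2520 to 4515 CPM in the spinal cord and 128.1 to 225.9 CPM in the cerebellum. In the spinal cord most of that sum came from mpz, at 2436.9 to 4476.5 CPM. Another gene of the list, pmp22, lay at 19.48 to 102.0 CPM there, against 1579.4 to 6912.1 CPM in the ganglion. The list thus did not move as a block, and its spinal cord sum rests mainly on mpz. That sum is therefore not read as a level of Schwann cells in the spinal cord. The part of these cell types in the filament levels was not tested.

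Whether the genes varied together among libraries of 1 tissue was asked in 9 relations of log2(CPM + 0.1), and none passed after adjustment. The strongest was between prph and nefh in the ganglion (n = 6, Pearson r = 0.887, exact permutation p = 0.0153, adjusted p = 0.138; Spearman rho = 0.829, exact permutation p = 0.0583, adjusted p = 0.175). It was 0.863 without the 2 libraries farthest from the median of prph and 0.255 on log2(TPM + 0.1), a scale that leaves out the TMM factors. In the spinal cord nefl and nefh gave r = 0.761 (n = 6, exact permutation p = 0.0347, adjusted p = 0.156; rho = 0.829, exact permutation p = 0.0583, adjusted p = 0.175), and 0.199 without the 2 libraries farthest from the median of nefl. Spinal cord prph and nefl gave r = 0.787 (n = 6, exact permutation p = 0.0528, adjusted p = 0.158; rho = 0.829, exact permutation p = 0.0583, adjusted p = 0.175), and 0.669 without the 2 farthest libraries. Over all 18 libraries, which share the difference between tissues, r was 0.932 for nefl with nefh, 0.924 for prph with nefl and 0.981 for prph with nefh.

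Genes with the most similar pattern over the 18 libraries were found by Pearson r of log2(CPM + 0.1) among 9050 genes that had a symbol and averaged 1 or more in log2 CPM, as a description of tissue differences. Closest to prph were the sorting nexin gene snx10 (r = 0.989), the growth cone gene gap43 (0.989), the galectin gene lgals1 (0.989), the membrane fusion gene snap23 (0.988) and the myosin gene myo1c (0.985). The level of gap43 was 748 ± 210 CPM in the ganglion, 418 ± 33.7 CPM in the spinal cord and 89.9 ± 12.7 CPM in the cerebellum (SD, n = 6 each). Closest to nefl were the tetraspanin gene tspan12 and the neuronal tubulin gene tubb3 (both 0.980), spag1 (0.978), the sensory neuron homeobox gene drgx (0.969) and the fatty acid elongase gene elovl1 (0.969). The tubb3 level was 387 ± 126 CPM in the ganglion, 336 ± 55.6 CPM in the spinal cord and 28.0 ± 6.12 CPM in the cerebellum. Closest to nefh were the annexin gene anxa6 (0.994), snx10 (0.993), lgals1 (0.992), the secreted-protein gene dkk3 (0.987) and gap43 (0.984). The names depend on the measure: by Spearman rho, dkk3 was the 1 of these genes that was again among the 5 closest to its filament gene. They also depend on the scale. By Pearson r of log2(TPM + 1), 1 of the 5 genes named for prph and 3 of the 5 for nefl stayed among the 5 closest. For nefh, gap43 moved to rank 6 and the others stayed.

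Other intermediate filament genes did not all follow the axonal ones. Of 34 listed genes 13 matched a symbol and 12 were tested; nefm, ina and gfap matched no symbol and were not analysed here. Bfsp2, a lens filament gene in mammals, did not pass the filter on low counts. In the ganglion against the cerebellum 7 of the 12 were called higher and 3 lower (background 29.6% and 22.3%), with a median log2 fold change of 1.86 against 0.072 over all genes. Against the spinal cord 3 were called higher in the ganglion, 1 lower (background 14.5% and 17.3%) and 8 were not called, with a median of -0.025. In the spinal cord against the cerebellum 6 were called higher and 4 lower (background 28.9% and 16.3%), with a median of 1.203 against 0.078 over all genes.

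Synemin (synm), which co-assembles with other filament proteins, was the one of the 12 called higher in all 3 comparisons. Its level was 96.0 ± 24.0 CPM in the ganglion, 12.5 ± 5.00 CPM in the spinal cord and 3.56 ± 1.10 CPM in the cerebellum (SD, n = 6 each). Its log2 fold change was 4.75 ± 0.305 in the ganglion against the cerebellum and 2.93 ± 0.277 against the spinal cord (edgeR adjusted p = 5.92e-11 and 3.66e-08). Vimentin (vim), the filament of glia, fibroblasts and immature cells, was highest in the spinal cord, with 85.2 ± 26.6 CPM in the ganglion, 210.0 ± 15.3 CPM in the spinal cord and 22.3 ± 2.06 CPM in the cerebellum. Its log2 fold change between ganglion and spinal cord was -1.30 ± 0.186 (edgeR adjusted p = 8.66e-06). Nestin (nes), a filament of neural progenitors, had 26.7 ± 15.8 CPM in the ganglion, 41.6 ± 8.70 CPM in the spinal cord and 7.21 ± 0.938 CPM in the cerebellum, and was called higher than in the cerebellum in both. The nes call of the ganglion was lost on log2(TPM + 1).

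The nuclear lamin genes lmnb1 and lmnb2 were lower in both tissues than in the cerebellum. The lamin gene lmna went the other way and was called higher in both. Its log2 fold change against the cerebellum was 1.93 ± 0.437 in the ganglion (edgeR adjusted p = 0.000609). In the spinal cord it was 1.61 ± 0.434 (edgeR adjusted p = 0.00307). The ganglion call did not hold in every library. Ganglion replicates 2 and 5 had 7.08 and 4.38 CPM of lmna, against 24.4 to 54.8 CPM in the other ganglion libraries and 4.47 to 10.3 CPM in the cerebellum. The lmna calls were not followed on log2(TPM + 1). The lmnb1 level was 18.9 ± 3.13 CPM in the ganglion, 18.8 ± 3.62 CPM in the spinal cord and 81.0 ± 17.8 CPM in the cerebellum. The keratin gene krt18 had 134 ± 99.6 CPM in the ganglion, 45.8 ± 42.0 CPM in the spinal cord and 26.3 ± 3.72 CPM in the cerebellum. Its call between ganglion and spinal cord (1.56 ± 0.598, edgeR adjusted p = 0.0363) was lost without ganglion replicate 1 or 6 or spinal cord replicate 3, 4, 5 or 6, with values of 1.21 to 1.45 and adjusted p of 0.0673 to 0.0965 by edgeR. Against the cerebellum its call (2.35 ± 0.615, edgeR adjusted p = 0.00207) was lost on log2(TPM + 1), at 1.04. The muscle filament desmin (des) averaged 3.17 ± 1.99 CPM in the ganglion, 3.38 ± 2.09 CPM in the spinal cord and 0.864 ± 0.441 CPM in the cerebellum, and its calls against the cerebellum were lost on log2(TPM + 1). Its spinal cord call was also lost without the 4 libraries with the most acta1 (log2 fold change 1.07, edgeR adjusted p = 0.0685).

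**Figure D5:**
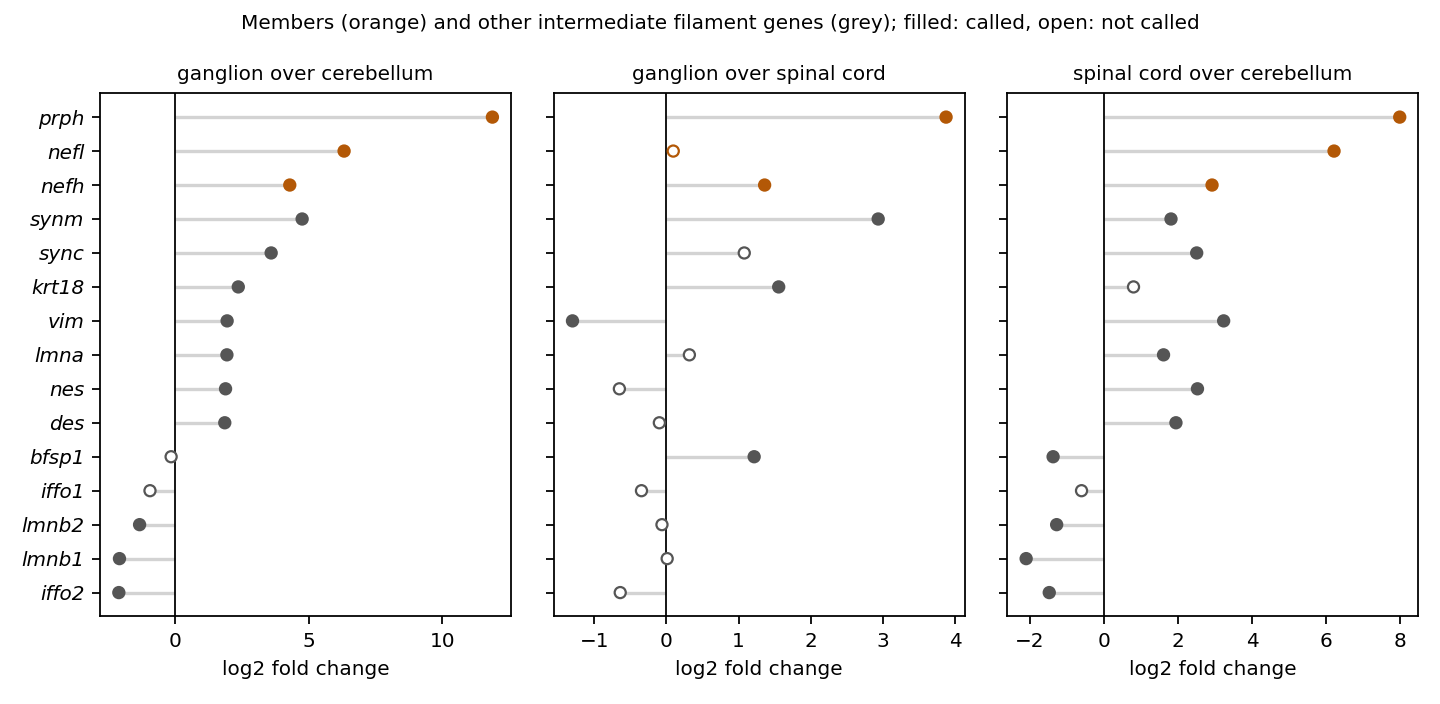
Log2 fold change from edgeR of prph, nefl and nefh (orange) and of the 12 other intermediate filament genes tested (grey) in the 3 comparisons, with filled points for called genes and open points for genes not called. The orange points lie at 4.28 to 11.87 in the ganglion against the cerebellum, while the grey ones fall on both sides of 0.

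Genes that handle filament proteins were read from lists that also hold members with other tasks. Over all genes tested, the shares called higher and lower were 29.6% and 22.3% for ganglion minus cerebellum, 14.5% and 17.3% for ganglion minus spinal cord, and 28.9% and 16.3% for spinal cord minus cerebellum, and nothing particular to a list is read from the small counts that follow. Among kinases and phosphatases that act on neurofilament tails in mammals (12 tested), 1 gene was called in the ganglion against the cerebellum, 1 in the ganglion against the spinal cord and 3 in the spinal cord against the cerebellum, each of them lower. The list's median log2 fold change was -0.37, 0.14 and -0.022 in these comparisons. The gene cdk5r1 encodes the activator of the tail kinase CDK5. It had 72.5 ± 27.1 CPM in the ganglion, 132 ± 12.1 CPM in the spinal cord and 368 ± 24.9 CPM in the cerebellum, a log2 fold change against the cerebellum of -2.34 ± 0.211 (ganglion) and -1.47 ± 0.205 (spinal cord) (edgeR adjusted p = 8.35e-09 and 3.86e-06). It was the 1 gene called in the ganglion, and cdk5, cdk5r1 and ppp2cb were the 3 in the spinal cord, with the cdk5 call lost under upper-quartile scaling, at -0.93. Between ganglion and spinal cord the called gene was rock2, a kinase gene, at -1.34 ± 0.218 (edgeR adjusted p = 3.63e-05).

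In the list of filament turnover and chaperones (9 tested), 3 genes were called higher in each of the 3 comparisons, and they were uchl1, hspb1 and capns1 each time. In the ganglion 1 further gene was called lower and 5 were not called against either tissue, and 6 were not called in the spinal cord against the cerebellum. The shares called higher against the cerebellum were near the background. The ubiquitin hydrolase gene uchl1 had 955 ± 242 CPM in the ganglion, 316.5 ± 71.4 CPM in the spinal cord and 62.0 ± 17.5 CPM in the cerebellum. Its log2 fold change against the spinal cord was 1.59 ± 0.211 (edgeR adjusted p = 3.40e-06). The small heat shock gene hspb1, whose protein binds neurofilaments in mammals, had 27.2 ± 19.3 CPM in the ganglion, 7.57 ± 4.88 CPM in the spinal cord and 1.13 ± 0.523 CPM in the cerebellum. The calpain small subunit gene capns1 had 746 ± 318 CPM in the ganglion, 276 ± 26.7 CPM in the spinal cord and 84.6 ± 7.88 CPM in the cerebellum. Moving the other way, trim2, a ubiquitin ligase gene whose protein acts on NEFL in mice, was lower in the ganglion at 13.3 ± 2.73 CPM than in the spinal cord at 38.2 ± 5.19 CPM (log2 fold change -1.52 ± 0.150, edgeR adjusted p = 6.74e-08).

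Of the transport motor genes (8 tested), 3 were called higher in the ganglion than in the cerebellum, 1 than in the spinal cord, and 2 in the spinal cord than in the cerebellum, with 5, 7 and 6 genes not called. These shares were near the background. Cytoplasmic dynein heavy chain (dync1h1) had 425.5 ± 122 CPM in the ganglion, 241 ± 19.9 CPM in the spinal cord and 106 ± 5.23 CPM in the cerebellum, with its spinal cord call lost on log2(TPM + 1). The dynactin gene dctn2 accounted for the 1 call between ganglion and spinal cord at 1.32 ± 0.346 (edgeR adjusted p = 0.00347), and the difference was 0.75 without ganglion replicate 5 and 0.55 on log2(TPM + 1), not called in either case. The axonal kinesin gene kif1a was higher in the spinal cord than in the cerebellum at 1.40 ± 0.161 (edgeR adjusted p = 3.53e-07).

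The linker and RNA-binding lists were small and mixed in direction. Of 5 linker and cross-linker genes tested, 1 was called higher and 1 lower in the ganglion than in the cerebellum, 1 lower in ganglion minus spinal cord, and 3 higher and 1 lower in the spinal cord than in the cerebellum. The plakin gene ppl had 38.3 ± 11.3 CPM in the ganglion, 232 ± 30.6 CPM in the spinal cord and 24.6 ± 8.70 CPM in the cerebellum. Of 6 RNA-binding genes, 2 were called higher and 1 lower in the ganglion than in the cerebellum, 2 lower in ganglion minus spinal cord, and 2 higher in the spinal cord than in the cerebellum. The gene arhgef28, whose protein binds NEFL mRNA in mammals, had 4.03 ± 2.00 CPM in the ganglion, 14.8 ± 4.19 CPM in the spinal cord and 5.23 ± 1.66 CPM in the cerebellum. Its log2 fold change between ganglion and spinal cord was -1.87 ± 0.313 (edgeR adjusted p = 5.42e-05). Over all these lists, 47 gene and comparison pairs were both called and named by the rule or as desmin, and 11 of those calls were lost on log2(TPM + 1).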

How the data were processed

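Raw counts of each library were deposited, per the file headers. The submitters' processing notes name Subread 2.0.1, featureCounts, STAR 2.7.7a, Trimmomatic 0.39 and CASAVA 1.8.2. TPM values, which the authors scaled per library, stand in the same table, per the file headers. Build, annotation and strand setting: not given in the sources used here; reads shared with overlapping or near-identical genes were not examined, and no gene position or sequence is printed. Libraries used a low-input kit, per the labels' protocols. Of the 28031 genes, 17658 carry a locus identifier only and could join no list by symbol.

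Genes kept by filterByExpr (20691, all 3 filament genes among them) were scaled by TMM and tested by the edgeR 4.0.16 quasi-likelihood F-test over all 18 libraries in R 4.3.3, with tissue as the only term. limma 3.58.1 on log2(deposited TPM + 1) and DESeq2 1.42.0 were alternatives. Ratios, neuron-scaled levels and correlations used exact permutation tests in Python 3.11.15 with a pseudocount of 0.1. Scripts were tested on simulated data. The filament genes and all lists were chosen with earlier results of these data known. Named list genes are, in each list and comparison, up to 3 called genes with the largest fold change and the most abundant uncalled one, at an average log2 CPM of at least 1. Vim, nes and synm were named in any case, and desmin (des) was handled like them though no part of the rule picks its symbol; lmna, lmnb2 and bfsp2 were named after their values were seen. No pair of libraries within a tissue was a copy (lowest chi-square per degree of freedom 12.8). Same-numbered libraries deviated together between ganglion and spinal cord (correlations of 0.133 to 0.425, all 6 over 0.1) and between spinal cord and cerebellum (0.243 to 0.437, all 6), and between ganglion and cerebellum in 4 of 6; the labels do not say that a number is a fish. The pairing therefore comes from the data.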

Additional observations from a re-analysis of the deposited data

Results flagged for a closer look

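The lowest nefh level in the spinal cord, 613.1 CPM in replicate 1, lay apart from the other 5 spinal cord libraries, at 964.5 to 1166 CPM. Its gap to the nearest library was 0.636 of the group's range, above Dixon's 95% critical value for 6 samples. Among 18 groups checked this was the 1 departure, and chance gives about 5% of groups. Replicate 1 was also the lowest spinal cord library for nefl, at 109.7 CPM, and had 1295 CPM of acta1. Replicates 3 and 5 had 1119 and 1172 CPM of acta1, with nefh at 964.5 and 969.0 CPM. Replicate 1 was lowest in summed neuron markers (1604 CPM, others 1826 to 2466) and motor neuron markers (602.3 CPM, others 890.0 to 1337). In sensory neuron markers it had 212.5 CPM, above the 195.2 CPM of replicate 5. The part of acta1 and of these cell types in the low nefh was not tested. With any 1 library left out, the nefh log2 fold change between ganglion and spinal cord was 1.24 to 1.45 and called.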

How the results depend on the processing

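The 261 recomputed fold changes of prph, nefl and nefh include fits that left out libraries only of the tissue not compared. Such fits keep every library of both tissues compared, so little change can follow. Of the 261, 250 kept direction and call. Those that did not all concern ganglion minus spinal cord. There nefh was 0.94 with limma on log2(TPM + 1), on log2(TPM + 0.1) and without a filter, and nefl, never called, was -0.26 on each of these scales, -0.042 without the 4 libraries with the most acta1, and -0.12 to 0.29 with 1 library left out (-0.12 without ganglion replicate 4, and -0.069, -0.0075 and -0.011 without spinal cord replicates 1, 2 and 3). The nefl difference relative to neuron markers turned to -0.16 with summed markers and -0.075 with uncalled markers only. The ratio of prph to nefl, spinal cord minus cerebellum, was -0.65 with a pseudocount of 1. The other 206 recomputed ratios kept direction and call, but no ratio was recomputed without ganglion replicates 2 and 5 together. Correlations turned without the 2 farthest libraries to -0.742 (nefl with nefh, ganglion), -0.967 (nefl with nefh, cerebellum), 0.900 (prph with nefl, ganglion) and -0.505 (prph with nefl, cerebellum). Of the named list genes, csnk1a1 in spinal cord minus cerebellum was 0.12 with upper-quartile scaling and 0.0036 without the acta1 libraries. Ganglion minus spinal cord, des was 0.43 without the acta1 libraries and -0.45 to 0.26 with 1 library left out (0.023, 0.065 and 0.047 without ganglion replicates 2, 3 and 4, and 0.26 without spinal cord replicate 5), and dst was 0.0093 without ganglion replicate 5 and 0.024 without replicates 2 and 5. For spinal cord minus cerebellum, kif1b was -0.13 with limma on each TPM scale and -0.0054 (without cerebellum replicate 3) to 0.15 with 1 library left out, and stub1 was 0.0061 with upper-quartile scaling. The cause was not tested. The replicate block changed no call of the 3 genes (nefl, ganglion minus spinal cord, 0.17 with the replicate block) and ended none of the 47 named list calls. Depth limits prph in the cerebellum, with 11 counts.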

Other observations

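Ganglion replicates 2 and 5, which were highest in prph, differed from the other ganglion libraries in the CPM of some other filament genes. The keratin gene krt18 had 42.5 and 6.42 CPM in ganglion replicates 2 and 5, against 131.6 to 277.6 CPM in the other ganglion libraries. The lamin gene lmna had 7.08 and 4.38 CPM in the same libraries, against 24.4 to 54.8 CPM in the others. By CPM, synm was highest in these libraries, at 133.9 and 105.5 CPM, against 61.2 to 96.1 CPM in the others. The low TMM factors of replicates 2 and 5 (0.814 and 0.611) raise their CPM relative to TPM. The order of synm is given for CPM only, and no difference of these libraries in synm is read from it. Vim had 101.8 and 36.3 CPM in replicates 2 and 5, against 79.6 to 110.6 CPM in the others. These genes and libraries were set side by side after their values were seen, with no test.

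The nefl level was compared between libraries of the same number in different tissues. Its 3 highest libraries were replicates 4, 5 and 6 in the spinal cord and in the cerebellum, and replicates 3, 4 and 6 in the ganglion. The log2 CPM of nefl in same-numbered libraries of the spinal cord and the cerebellum gave r = 0.884 (n = 6, exact permutation p = 0.0333, adjusted p = 0.225 over 9 relations; rho = 0.714, exact permutation p = 0.136, adjusted p = 0.408), and 0.894 without the 2 libraries farthest from the median. Between ganglion and cerebellum r was 0.778 (exact permutation p = 0.0736, adjusted p = 0.225) and 0.224 without the 2 farthest. Between ganglion and spinal cord r was 0.614 (exact permutation p = 0.151, adjusted p = 0.341) and 0.256 without the 2 farthest. None of the 9 relations, chosen after the values were seen, passed after adjustment.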
